A study of Mus musculus with 4 samples.

Results

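Captured methylated DNA was described in 12 regions of 6 genes of Th1 and cytotoxic effector T cells. The genes were Stat4, Il27ra, Gzmb, Gzmk, Zbtb16 and Prdm1, and the regions were all rows of the deposited table that carry 1 of these 6 names, 12 of 10000. The 4 populations, with 1 library each, were Th17 cells (low CD45RB, IL-17A secreted and interferon gamma not), regulatory T cells (Treg, CD4+ with very high CD25), Th1 cells (low CD45RB, interferon gamma secreted and IL-17A not) and naive T cells (Tnaive, high CD45RB). All were CD4+ cells of spleen and lymph node from female Balb/c mice, and all received PMA (10 ng/ml) together with ionomycin (500 ng/ml) over 3 h as a stimulus. Treg cells were stimulated after the sort and the other populations before it. Whether each library came from 1 animal or from a pool is not given in the labels.

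A Th1 cell is a helper T cell that secretes interferon gamma. Interleukin signals that act through STAT proteins start this programme, and some of its cells also make granzymes, the proteases by which cytotoxic lymphocytes kill their targets. Methylation of cytosines in CpG dinucleotides is a stable mark on DNA that is often lost at regulatory sites of genes a T cell lineage uses. The capture protein binds methylated CpGs, so the reads of a region depend on its methylation and also on how many CpGs it holds.

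By role, Stat4 encodes the transcription factor that the IL-12 receptor activates, and Il27ra a chain of the receptor for IL-27. Gzmb encodes granzyme B and Gzmk granzyme K. Zbtb16 encodes PLZF, a zinc finger factor of innate-like T cells such as natural killer T cells. Prdm1 encodes Blimp-1, a repressor of transcription in effector lymphocytes. All positions of regions below are in the mm9 build, as the deposited table gives them, and the sequence of that build was not used here. First and second below number a gene's intronic regions by coordinate, not by the direction of the gene. The number of an intron is not given, so intronic regions of a gene may share an intron.

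None of the 12 regions was assigned to a promoter. They comprised 9 intronic and 3 exonic regions (75.0% and 25.0%), against 78.65% intronic, 16.58% exonic and 4.77% promoter regions in the whole table. Their lengths ran from 170 to 404 bp with a median of 253.5 bp, against a median of 249 bp over all regions. Because the capture reads CpGs, the start windows of Gzmb and Prdm1, at the low and the high end of CpG content among these genes, are shown, with each CpG in capitals. They are RefSeq windows of 300 bases around the gene start in GRCm38.p6, another build, so they cannot be placed against the 12 regions. A window was found for 4 of the 6 genes, Stat4 with 2 windows.
Gzmb, minus strand, chr14:56262285-56262584: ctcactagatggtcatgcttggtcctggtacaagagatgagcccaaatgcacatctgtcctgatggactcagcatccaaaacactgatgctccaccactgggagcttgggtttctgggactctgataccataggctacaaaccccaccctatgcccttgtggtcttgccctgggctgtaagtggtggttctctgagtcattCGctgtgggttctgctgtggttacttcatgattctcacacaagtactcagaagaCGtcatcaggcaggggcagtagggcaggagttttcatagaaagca
Prdm1, minus strand, chr10:44458699-44458998: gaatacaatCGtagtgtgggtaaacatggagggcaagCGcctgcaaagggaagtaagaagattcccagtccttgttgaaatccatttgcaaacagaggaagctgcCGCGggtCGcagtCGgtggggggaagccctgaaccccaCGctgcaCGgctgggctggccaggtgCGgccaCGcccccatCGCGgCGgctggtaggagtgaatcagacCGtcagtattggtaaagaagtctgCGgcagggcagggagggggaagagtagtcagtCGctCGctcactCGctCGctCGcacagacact

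The Gzmb window holds 2 CpGs and the Prdm1 window 20. The motif searched was CG, which reads the same on both strands, and 94.6% of all 32851 RefSeq start windows hold at least 1. As many CpGs as in Prdm1, or more, stand in 26.5% of the windows, and as many as in Gzmb, or more, in 85.9%. The Gzmk window holds 8 and the Stat4 windows 2 and 4, with a median of 7 over all windows.

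The deposited signal is a scaled number of reads that is not divided by the length of the region. A single read was worth 0.352 in the Treg library, 1.68 in the Th1 library and 0.996 in the naive library. Over the table, the libraries held 74571 Treg, 19548 Th1 and 34277 naive reads, so Treg had 3.81 times and naive 1.75 times as many as Th1. A library averages over a sorted population, so fewer methylated cells and less methylation per cell cannot be told apart. Every Th17 value in the table is 0, and the depth of the Th17 library is not known. Of 28 marker genes of T cell subsets and other blood cells, 4 had a region, with 0 of 3 for Th1 cells (Ifng, Tbx21 and Cxcr3). DNA capture gives no expression, so the labelled cell types could not be checked against their markers. All intervals below are 95% intervals from the reads, exact Poisson for a level and exact conditional binomial for a ratio. They cover counting error only, and with 1 library per population no difference between populations has a replicate check or a test. The exact binomial test of reads given below compares libraries only.

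**Figure D1:**
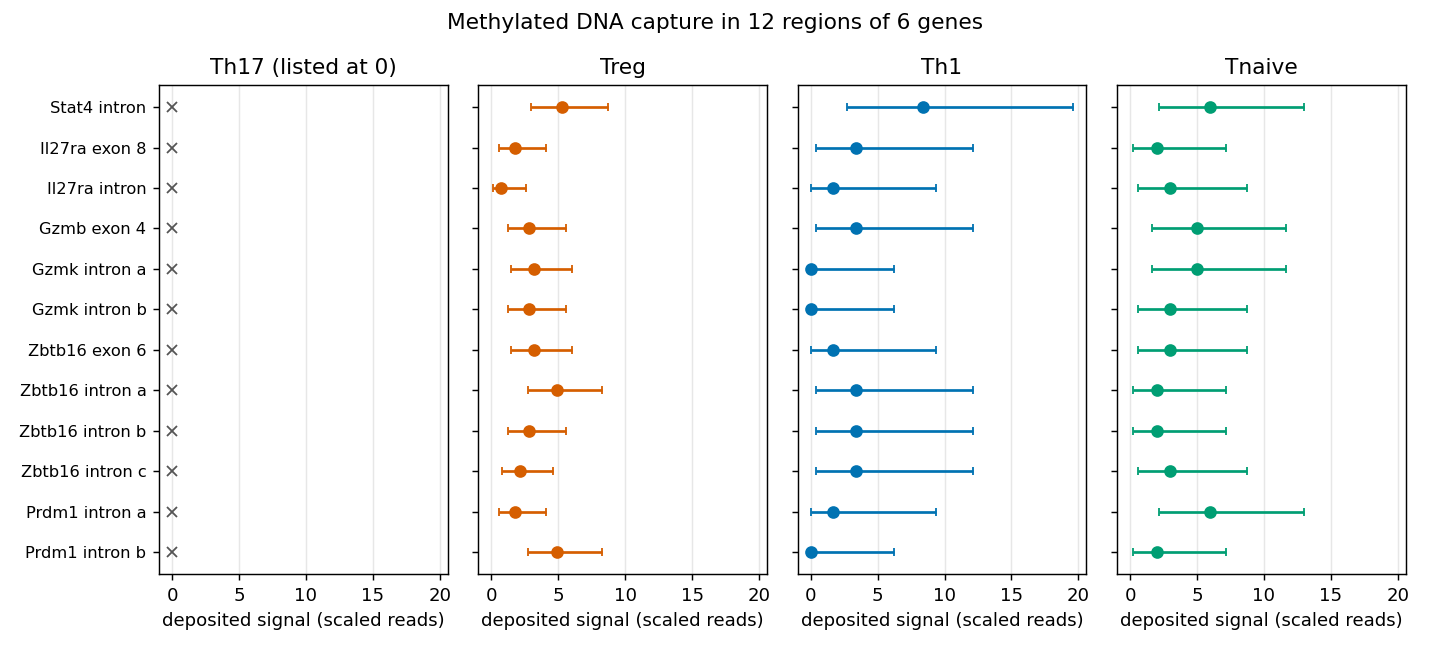
Deposited signal (scaled reads, x axis) of the 12 regions (rows) in Th17, Treg, Th1 and Tnaive libraries, with 95% Poisson intervals where reads could be recovered. Letters a to c number a gene's intronic regions by position. Stat4 has the highest Treg and Th1 values (5.29 and 8.40), Th1 intervals are the widest, and 3 regions have no Th1 read.

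Stat4 (ENSMUSG00000062939) was the member with the most signal. Its single region lay in an intron (chromosome 1, 52098381 to 52098784, 404 bp). It was listed at 0 in Th17 cells and held 15 reads in Treg cells, 5 in Th1 cells and 6 in naive cells. These correspond to a signal of 5.29 in Treg (2.96 to 8.72), 8.40 in Th1 (2.73 to 19.6) and 5.98 in naive cells (2.19 to 13.0). The Th1 value was the highest of the 3, and all 3 intervals overlapped. The ratio of Th1 to naive was 1.41 (0.339 to 5.53), that of Treg to naive 0.885 (0.324 to 2.78, above 1 at the other scalings) and that of Treg to Th1 0.629 (0.217 to 2.21).

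With a mean of 6.56 over the 3 libraries, the Stat4 region ranked at 20 of 10000, above 99.8% of the table. At 404 bp it was also the longest of the 12, against a median of 249 bp over all regions. Because the signal is not divided by length, the rank does not give methylation per base. No other region had the same 3 read numbers. The nearest regions of other genes, by the largest log2 difference of signal over the 3 libraries with 0.5 added, lay within 0.25 of it. They were an intron of Slc41a2, a magnesium transporter gene (15 Treg, 5 Th1 and 5 naive reads), an exon of 4930465M20Rik (15, 6 and 6) and an intron of Mmaa, a gene of cobalamin metabolism (17, 6 and 5).

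**Figure D2:**
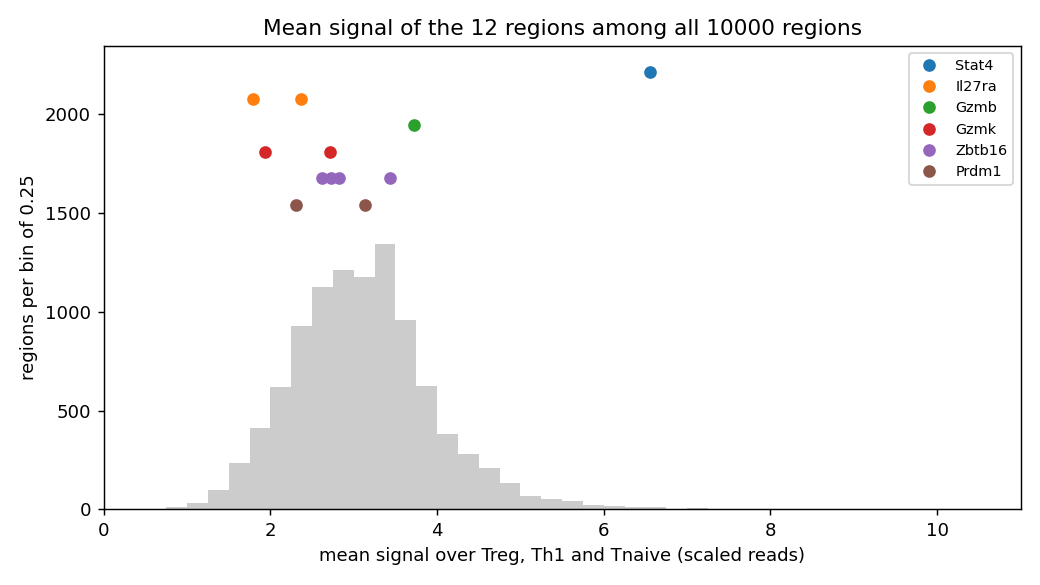
Mean signal over Treg, Th1 and Tnaive (x axis, scaled reads) of the 12 regions (points, 1 row per gene) above the histogram of all 10000 regions (y axis, regions per bin of 0.25). Stat4, at 6.56, lies in the upper tail, and the other 11 lie between 1.79 and 3.72, within the bulk.

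The other 11 regions lay within the bulk of the table. Their means ran from 1.79 in the Il27ra intron, above 3.76% of regions, to 3.72 in Gzmb exon 4, above 79.5%. Each of these 11 shared its 3 read numbers with other regions of the table. Their number ran from 2 for the second Prdm1 region and 8 for the first Zbtb16 intronic region up to 81 for Zbtb16 exon 6. Over all 12, the median of the mean signal was 2.72, against 3.06 for the whole table. The median number of reads per region was 12.5, against 13.

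Il27ra (ENSMUSG00000005465) had a pair of regions that carry consecutive region numbers, 1079 bp apart, on chromosome 8. The exon 8 region (86559808 to 86560068) held 5 Treg, 2 Th1 and 2 naive reads, with signals of 1.76 in Treg (0.572 to 4.11), 3.36 in Th1 (0.407 to 12.1) and 1.99 in naive cells (0.241 to 7.20). The intronic region (86561148 to 86561391) held 2 Treg, 1 Th1 and 3 naive reads, with signals of 0.705 (0.0854 to 2.55), 1.68 (0.0426 to 9.37) and 2.99 (0.616 to 8.73). Both were listed at 0 in Th17 cells. The intron had the lowest Treg signal and the fewest reads of the 12 regions. Summed over the pair, Il27ra had 7 Treg, 3 Th1 and 5 naive reads. The Treg to naive ratio was 0.495 (0.135 to 1.98), and the Th1 to naive ratio 1.01 (0.157 to 5.20).

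Of the granzyme genes, Gzmb (ENSMUSG00000015437) had 1 region, in exon 4 (chromosome 14, 56878920 to 56879294). It was listed at 0 in Th17 cells and held 8 Treg, 2 Th1 and 5 naive reads. The signals were 2.82 in Treg (1.22 to 5.56), 3.36 in Th1 (0.407 to 12.1) and 4.98 in naive cells (1.62 to 11.6). Naive cells had the highest value, and the intervals overlapped throughout. The Th1 to naive ratio was 0.675 (0.0643 to 4.12), and the Treg to naive ratio 0.566 (0.163 to 2.20). Gzmb lies in a cluster of related granzyme genes, and whether its reads could match a relative was not examined.

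Gzmk (ENSMUSG00000042385) had a pair of intronic regions on chromosome 13, 4906 bp apart, with 1 region number between them that is not in the table. Both were listed at 0 in Th17 cells, and both also had no Th1 read. The first (113973431 to 113973618) held 9 Treg and 5 naive reads, with signals of 3.17 in Treg (1.45 to 6.02) and 4.98 in naive cells (1.62 to 11.6). The second (113978525 to 113978694) held 8 Treg and 3 naive reads, with 2.82 (1.22 to 5.56) and 2.99 (0.616 to 8.73). Th1 was thus at 0 in both regions, and the Treg and naive intervals overlapped in each. Naive lay above Treg in both at the deposited scaling, but in the second region Treg lay above naive at equal table totals and by median-of-ratios scaling (log2 ratios of 0.25 and 0.24, against -0.07). Gene sums were 17 Treg, 0 Th1 and 8 naive reads, and the Treg to naive ratio was 0.752 (0.308 to 2.01).

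The Th1 zeros of Gzmk are limited by depth. In the shallow Th1 library a count of 0 allows up to 3 reads, a signal of 5.04 (the 2-sided Poisson interval of a zero, as plotted, ends at 6.20), and the highest Treg or naive signal in a member region without a Th1 read was 4.98. A lower Th1 level was therefore not detectable in any single one of these regions. Over both Gzmk regions, 0 Th1 against 8 naive reads gave a ratio whose interval ran from 0 to 0.989. Of the 18 intervals over genes and pairs of libraries, it alone left out 1, and its upper end lay above 0.962, the Th1 to naive ratio of all regions. The Treg to Th1 interval of Gzmk had a lower end of 0.865 and no upper end. Gzma, the granzyme gene next to Gzmk in the RefSeq order, had 0 regions, as did Gzmc next to Gzmb.

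Zbtb16 (ENSMUSG00000066687) had the most regions of the 6 genes, 4 on chromosome 9 over 146513 bp, all listed at 0 in Th17 cells and all read in the other 3 libraries. The lowest in coordinate was exon 6 (48467752 to 48467964), followed by intronic regions at 48511281 to 48511650, 48604723 to 48604943 and 48613983 to 48614264. Between neighbours lay 51, 148 and 9 region numbers that are not in the table. In the same order, Treg cells held 9, 14, 8 and 6 reads, Th1 cells 1, 2, 2 and 2, and naive cells 3, 2, 2 and 3. Th1 and naive reads thus varied little along the gene, at 1 to 2 and 2 to 3 reads per region. Treg reads were most numerous in the first intronic region, which was also the longest. It spans 370 bp, against 213 bp for exon 6 and 221 and 282 bp for the other intronic regions. Reads were not divided by length.

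As signals, the 4 Zbtb16 regions ran from 2.11 to 4.93 in Treg, from 1.68 to 3.36 in Th1 and from 1.99 to 2.99 in naive cells. The first intronic region had the highest Treg value, 4.93 (2.70 to 8.28), against 1.99 in naive cells (0.241 to 7.20). Its Treg to naive ratio was 2.48, with an interval from 0.569 to 22.5. Over the gene, 37 Treg reads gave a mean of 3.26 per region (2.30 to 4.49), 7 Th1 reads 2.94 (1.18 to 6.06) and 10 naive reads 2.49 (1.19 to 4.58). The ratios of these means were 1.31 for Treg to naive (0.638 to 2.95), 1.18 for Th1 to naive (0.382 to 3.44) and 1.11 for Treg to Th1 (0.488 to 2.95).

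**Figure D3:**
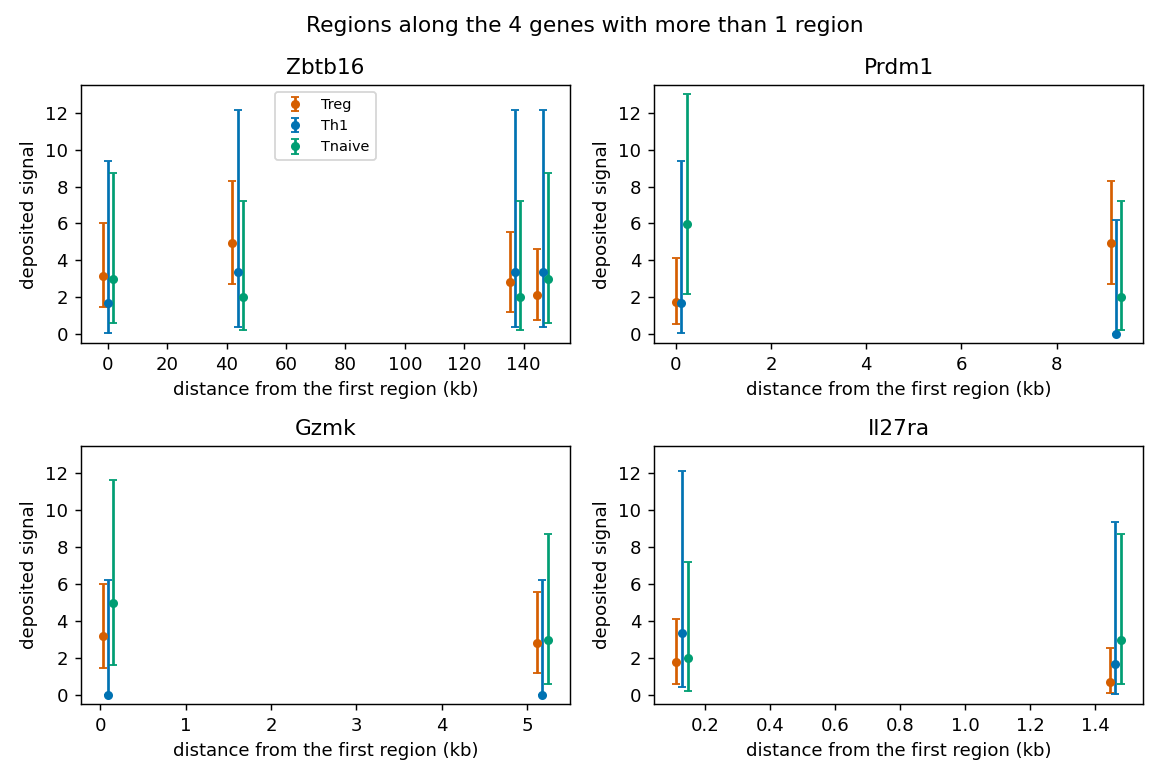
Deposited signal (y axis) of each region of Zbtb16, Prdm1, Gzmk and Il27ra by distance from the gene's first region (x axis, kb), with 95% Poisson intervals. Points of the 3 libraries are shifted sideways for legibility. In Prdm1 the Treg and naive values change places between its regions, 9 kb apart, and both Gzmk regions have Th1 at 0.

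Prdm1 (ENSMUSG00000038151) was the one gene with regions past the size rule described below in both directions of 1 comparison, Treg against naive. Its pair of intronic regions on chromosome 10 lay 8824 bp apart, with 11 region numbers between them that are not in the table. Both were listed at 0 in Th17 cells, and whether they lie in the same intron is not given. The first (44194928 to 44195173) held 5 Treg, 1 Th1 and 6 naive reads, with signals of 1.76 in Treg (0.572 to 4.11), 1.68 in Th1 (0.0426 to 9.37) and 5.98 in naive cells (2.19 to 13.0). The second (44203998 to 44204336) held 14 Treg, 0 Th1 and 2 naive reads, with 4.93 in Treg (2.70 to 8.28) and 1.99 in naive cells (0.241 to 7.20). Treg was thus below naive in the first region and above it in the second. The Treg to naive ratios were 0.295 (0.0712 to 1.16) and 2.48 (0.569 to 22.5).

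The first Prdm1 ratio divided by the second was 0.119, with an exact conditional interval from 0.00978 to 1.03 that includes 1. This contrast was chosen after its values were seen. Summed over both regions, Prdm1 had 19 Treg, 1 Th1 and 8 naive reads, and the Treg to naive ratio was 0.840 (0.351 to 2.22). The gene sum thus combines point ratios on opposite sides of 1, each with an interval that includes 1. The Th1 to naive ratio of the sums was 0.211, with an interval from 0.00475 to 1.57.

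The comparison that names the table sets Th17 cells against the other populations. By a size rule, a log2 ratio of at least 1 with 0.5 added to both signals, Th17 was lower than each of Treg, Th1 and naive cells in 9 of the 12 regions, against 85.2% of all regions. The 3 that did not meet it were those with no Th1 read, both of Gzmk and the second of Prdm1. Since Th17 is 0 everywhere, the count is fixed by where the other libraries had reads. If 1 Th17 read were worth as much as 1 Th1 read, a Th17 zero would allow a signal of up to 5.04, and Stat4 would be the 1 member region above that limit in all 3 libraries. That holds for 8 regions of the table, or 0.08%.

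At the worth of a naive read, the limit of a Th17 zero would be 2.99, and Stat4 would again be alone among the 12, as 1 of 667 regions in the table. At the worth of a Treg read it would be 1.06, and 8 of the 12 regions would pass, against 69.0% of the table. Put as reads, a Th17 level equal to the mean of the other libraries would give 3.90 reads in Stat4 at the worth of a Th1 read, 2.21 in Gzmb and 1.07 in the Il27ra intron. At the worth of a Treg read it would give 18.6, 10.6 and 5.08. The weight of the Th17 zeros in these genes therefore rests on a depth that was not known.

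**Figure D4:**
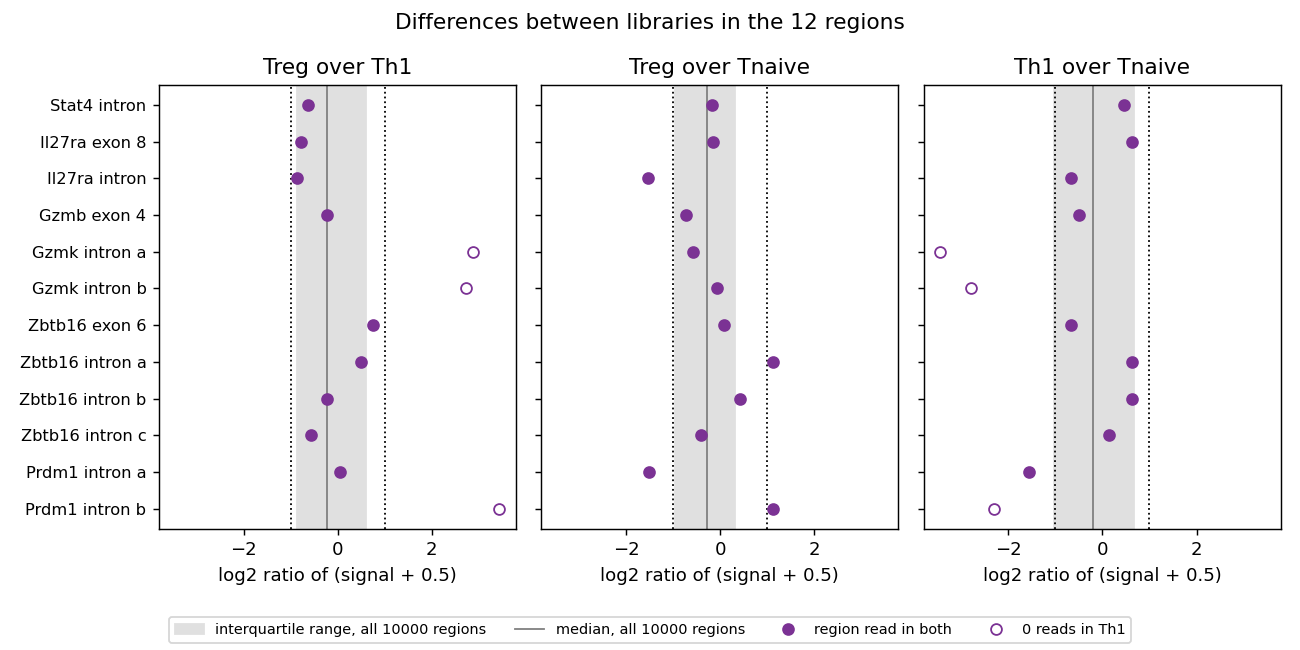
Log2 ratio of (signal + 0.5) between libraries (x axis) for the 12 regions (rows), with the median and interquartile range of all 10000 regions in grey and dotted lines at the size rule of 1. Open points mark regions with 0 Th1 reads, which lie farthest out where Th1 is compared.

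Treg against Th1 gave 3 regions past the size rule, all higher in Treg, both of Gzmk and the second of Prdm1. Of all regions, 17.0% were higher and 21.0% lower by this rule. At equal table totals 22.6% were higher and 15.2% lower, by median-of-ratios scaling 22.7% and 12.2%, and 4 of the 12 were then higher under either scaling. The 3 regions were those with no Th1 read, and their call rests on the number added to a zero. The median log2 ratio of the 12 was -0.08, against -0.22 for all regions.

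Treg against naive gave 4 regions past the rule, 2 in each direction. The first Prdm1 region (log2 ratio of -1.52) and the Il27ra intronic region were lower in Treg, against 22.2% of all regions. The Il27ra region held 2 Treg and 3 naive reads. The second Prdm1 region and the first Zbtb16 intronic region were higher (1.12 each), against 8.33%. With the libraries at equal table totals, 15.2% of all regions were higher and 12.3% lower, and by median-of-ratios scaling 13.4% and 13.1%, while the same numbers of the 12 passed. Each of these 4 intervals included equal signal. The median log2 ratio of the 12 was -0.15, against -0.29 for all regions.

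Th1 against naive gave 4 regions past the rule, all lower in Th1, against 29.0% of all regions lower and 19.4% higher. They were both regions of Gzmk and both of Prdm1, of which 1 held a Th1 read and the others none. At equal table totals 21.3% of all regions were lower and 19.6% higher, and by median-of-ratios scaling 29.0% and 19.4%. Under either scaling 4 of the 12 were again lower and 0 higher. Stat4, Il27ra, Gzmb and Zbtb16 had no region past the rule in this pair. The median log2 ratio of the 12 was -0.59, against -0.19 for all regions. Regions without a Th1 read made up 3 of the 12, or 25.0%, against 12.3% of the table.

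None of the 36 intervals of single regions and pairs of libraries left out a ratio of 1. Summed over all 12 regions, there were 103 Treg, 18 Th1 and 42 naive reads, a mean signal of 3.03 in Treg (2.47 to 3.67), 2.52 in Th1 (1.49 to 3.98) and 3.49 in naive cells (2.51 to 4.71). All 10000 regions averaged 2.63 in Treg, 3.29 in Th1 and 3.41 in naive cells, each within the interval of the 12. The highest value of a region was in Treg cells for 3 of the 12, in Th1 cells for 4 and in naive cells for 5. The shares over the table were 17.6%, 39.7% and 42.7%, in the same order.

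Other genes of the Th1 and cytotoxic programme also had regions. Of 72 genes in 4 lists, 11 had at least 1 region, or 15.3%. The 6 genes described above are among these 11 and have a region by choice. Only the list genes outside these 6 were open to having a region or not, and 5 of them had one. Of all protein-coding names, 22.4% had one, but the 15.3% is no fair comparison because of those 6. The lists gave 6 of 18 signalling and transcription factors, 2 of 20 receptors, 0 of 12 cytokines and chemokines, and 3 of 22 genes of granzymes and cytotoxic granules. In that order, 3, 1, 0 and 2 of these belong to the 6 genes. Gene length was not taken into account.

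The other 5 genes held 8 regions, all intronic and all listed at 0 in Th17 cells. Il18r1, which encodes a receptor chain for IL-18, and Runx3, a transcription factor of Th1 and CD8 cells, each held 10 Treg, 1 Th1 and 4 naive reads. Hopx, a homeodomain cofactor gene, held 11 Treg and 4 naive reads and, like Gzmk, no Th1 read. Rab27a, which encodes a GTPase of cytotoxic granule release, held 5 Treg, 3 Th1 and 3 naive reads. Zeb2, a zinc finger repressor gene, had 4 regions, of which 3 each held 7 Treg, 2 Th1 and 4 naive reads. The mean signals of these 8 regions were 2.69 in Treg (2.06 to 3.45), 2.73 in Th1 (1.45 to 4.67) and 3.61 in naive cells (2.42 to 5.19), and each interval overlapped that of the 12 regions.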

How the data were processed

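Methylated DNA was captured from 4 CD4+ T cell populations with a MethylCap kit and sequenced, per the labels' protocols, with 1 library each. Per the submitters' processing notes, the tools were FastQC and Bowtie 0.12.7 and the build mm9. Not given in the sources used here are their roles, the handling of multiply matching reads, the choice of regions and the scaling. The authors deposited a signal per region and library, in scaled reads. Reads were recovered by division: 100% of the Treg, Th1 and naive values were whole multiples of 1 constant per library, within a relative tolerance of 1e-06. Th17 values are all 0.

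Rows were selected by gene name. With 1 library per population, differences were described by the size rule with a pseudocount of 0.5 and by exact intervals, which an exact binomial test of reads with Benjamini-Hochberg adjustment at 0.05 accompanied as an alternative that compares libraries only. Python 3.11.15, numpy 2.4.6, scipy 1.17.1 and pandas 2.3.3 were used. The named regions are all those of the 6 genes and of the 4 lists, plus the 3 nearest to Stat4. Members and lists were chosen with earlier results of these data known. Gene order and synonyms came from RefSeq GRCm38.p6, names only. Thresholds, pseudocount, scaling, a read filter and sums per gene were varied.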

Additional observations from a re-analysis of the deposited data

How the results depend on the processing

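The counts of regions past the size rule depended on the number added to each signal. With a pseudocount of 5, the rule counted 1 of the 12 regions as lower in Th17 than in all other populations (Stat4; 0.110% of the table), and 0 for Treg against Th1, 0 for Treg against naive and 0 for Th1 against naive (1.89%, 0.790% and 4.12%). A threshold of 1.5 on the log2 scale left 2 for Treg against naive, both lower in Treg (12.1% of the table lower, 4.05% higher). A threshold of 1.5-fold gave 7 for Treg against Th1, 4 higher and 3 lower, and 9 for Th1 against naive, 3 higher and 6 lower, against 61.4% and 68.8% of the table; neither pair then pointed one way. With signals summed per gene, 5 of the 6 genes were lower in Th17 than in the others (90.6% of all genes), 2 were lower in Th1 than in naive cells (23.0%) and 0 passed for Treg against naive (24.7%). The exact binomial test of reads called 0 of the 12 regions in each of the 3 pairs of libraries. By this test 1 had an unadjusted p under 0.05, the first Prdm1 region in Treg against naive. Its interval is built in another way and includes equal signal. Over the table the test called 0, 1 and 0 regions for Treg against Th1, Treg against naive and Th1 against naive. In that order, 501, 840 and 153 had an unadjusted p under 0.05. Equal table totals, median-of-ratios scaling and the filter at 10 reads moved none of these 4 counts by more than 1.5 times. Equal table totals moved the median log2 ratio of all regions to 0.04 for Treg against naive, against -0.29 at the deposited scaling, and to 0.06 for Treg against Th1, against -0.22. The corresponding medians of the 12 regions became 0.17 and 0.18, so their sign turned with the scaling. Of the 36 single log2 ratios, the 11 past the rule kept their sign under the other pseudocount and both scalings. Of the other 25, 5 changed sign under the scalings. Treg against naive changed in Stat4, Il27ra exon 8 and the second Gzmk region. Treg against Th1 changed in Gzmb and the second Zbtb16 intronic region. No paired analysis was possible because each population has 1 library. The Th1 library, with a median of 2 reads per region, limits every comparison that uses it.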
